A study of Mus musculus with 13 samples.

Results

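The genes described here are 10 genes that the mouse oocyte transcribes: Zp1, Zp2, Zp3, Gdf9, Bmp15, Ooep, Nlrp5, Zar1, Npm2 and Oosp1. They were taken by gene name from a table of 53465 genes, in which each has 1 row. RNA had been sequenced from 3 WT ovaries and from 10 MP tumors. WT ovaries carried the WT genotype and MP tumors (Myc;p53-/-) were ovarian tumors, and the labels give both as not treated. The labels attach 1 text to all 13 samples, which gives female C57BL/6 mice aged 8 to 12 weeks at electroporation. The age at which a WT ovary or a tumor was taken is not given there. For the tumors, plasmids were electroporated into the exposed ovary and the tube beside it: a vector with Cas9 and a guide RNA against Trp53, a transposon carrying MYC, and the Sleeping Beauty transposase that inserts it. This is the EPO-GEMM approach (electroporation-based genetically engineered mouse model). The cells that took up the plasmids were not selected by type, and each tumor library holds RNA of all the cells in the tumor. Nothing in the labels ties a WT ovary to the animal of an MP tumor.

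An oocyte grows inside a follicle, wrapped in granulosa cells, and stores RNA and protein for the first divisions of the embryo. It secretes the zona pellucida, the glycoprotein coat that sperm must bind and cross, and it releases growth factors that act on the granulosa cells around it. The products of maternal effect genes are made in the oocyte and used by the embryo before its own genome is switched on. Oocytes are few among the cells of an ovary, but they are large and rich in RNA.

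Depth differed between the groups. WT libraries held 31445004 to 64013840 reads and MP libraries held 3892690 to 19906507 reads, as worked back from the table. Values are in TPM (a level per length of transcript, scaled to the same sum in each library). For a transcript of 1 kb, 1 read equalled 0.0513 TPM in the deepest library (WT ovary 3) but 0.79 TPM in the shallowest (MP tumor 5), so low levels in tumors rest on few reads. In MP tumor 2, the 10 highest genes took 55.1% of the TPM. The library names share 1 of 3 numbers, whose meaning the labels do not give, and the libraries with a shared number are called a name set here. Set A holds the 3 WT ovaries and MP tumors 1 to 3, set B holds MP tumors 4 to 6 and set C holds MP tumors 7 to 10. Since sets B and C hold no WT ovary, set and condition cannot be told apart for those tumors, and values within set A are given beside the pooled ones.

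The sequences before the start sites are shown for 3 of the genes, because they hold the letters that oocyte transcription factors are known to bind. FIGLA binds E-boxes, and NOBOX and LHX8 bind short homeobox elements. RefSeq promoters (GRCm38.p6) were matched for 6 of the 10 genes: Zp3, Bmp15, Ooep, Nlrp5, Zar1 and Oosp1. Each is written 5′ to 3′ on the strand of its gene, and capitals mark the motifs searched on both strands, which are the E-box (CANNTG), the NOBOX element (TAATTA or TAATTG), the LHX8 element (TGATTG) and the TATA box (TATAAA). No 2 of the marked motifs overlap in these 3 sequences. They lie at chr5:135979855-135980098 for Zp3, at chrX:6320725-6320974 for Bmp15 on the minus strand and at chr7:23385639-23385888 for Nlrp5.
Zp3: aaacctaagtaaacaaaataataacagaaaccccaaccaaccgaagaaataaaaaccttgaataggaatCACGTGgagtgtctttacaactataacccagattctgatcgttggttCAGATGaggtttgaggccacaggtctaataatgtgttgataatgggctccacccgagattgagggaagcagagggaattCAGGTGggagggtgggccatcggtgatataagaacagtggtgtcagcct
Bmp15: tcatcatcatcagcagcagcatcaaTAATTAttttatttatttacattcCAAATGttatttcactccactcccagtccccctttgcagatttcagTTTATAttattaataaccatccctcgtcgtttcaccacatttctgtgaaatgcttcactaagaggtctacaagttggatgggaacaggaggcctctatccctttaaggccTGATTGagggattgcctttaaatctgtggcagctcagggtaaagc
Nlrp5: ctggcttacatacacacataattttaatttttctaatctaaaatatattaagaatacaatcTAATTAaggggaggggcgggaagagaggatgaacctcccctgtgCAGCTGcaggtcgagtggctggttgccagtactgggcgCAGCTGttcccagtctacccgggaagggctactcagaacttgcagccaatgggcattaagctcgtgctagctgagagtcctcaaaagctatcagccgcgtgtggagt

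An E-box stood in the 250 bases before the RefSeq start of all 6 matched genes, and in 66.2% of 32851 promoters of the same length. In Ooep and Zar1, however, the E-boxes lie after the gene start that the deposited table gives, so that 4 of the 6 (Zp3, Bmp15, Nlrp5 and Oosp1) hold one before both starts. Against a mean of 1.16 E-boxes per promoter, Oosp1 held 5, Zp3 held 3, Nlrp5 and Zar1 held 2 each, and Bmp15 and Ooep held 1 each. In Oosp1, those that begin 93, 59 and 48 bases before the RefSeq start lie after the start in the deposited table, 99 bases upstream. The NOBOX element stood in 3 of the 6 (Bmp15, Ooep and Nlrp5) and in 11.3% of all promoters. The LHX8 element was found only in Bmp15 among the 6, and in 12.7% of all promoters. The TATA box was also found only in Bmp15, where it lies on the opposite strand, and in 12.4% of all promoters. A match of letters is a description and does not show that a factor binds there.

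All 10 genes were lower in MP tumors than in WT ovaries, and in each gene the lowest WT ovary lay above the highest MP tumor. The fall passed the test in 10 of 10 genes (limma on log2(TPM + 1), Benjamini-Hochberg adjusted over 17277 genes tested), where 14.3% of all tested genes were lower and 2.51% were higher. Every WT ovary lay above every MP tumor in 16.4% of tested genes. The log2 fold changes ran from -6.30 in Zp2 to -3.83 in Gdf9 with a median of -4.75, beside a median of -0.58 over all tested genes. Over all genes, 2463 were lower and 433 higher as deposited, against 1888 and 1291 with median-of-ratios scaling, which brought the median of all genes to -0.02, and 2091 and 1904 with quantile normalization, which brought it to 0.08. The 10 genes were lower under each of these scalings. Only Gdf9 and Npm2 would have passed the filter on low values through MP tumors alone. The other 8 passed it through the WT ovaries, so that a difference was built into their passing. In bulk tissue, fewer oocytes and less RNA per oocyte cannot be told apart.

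**Figure D1:**
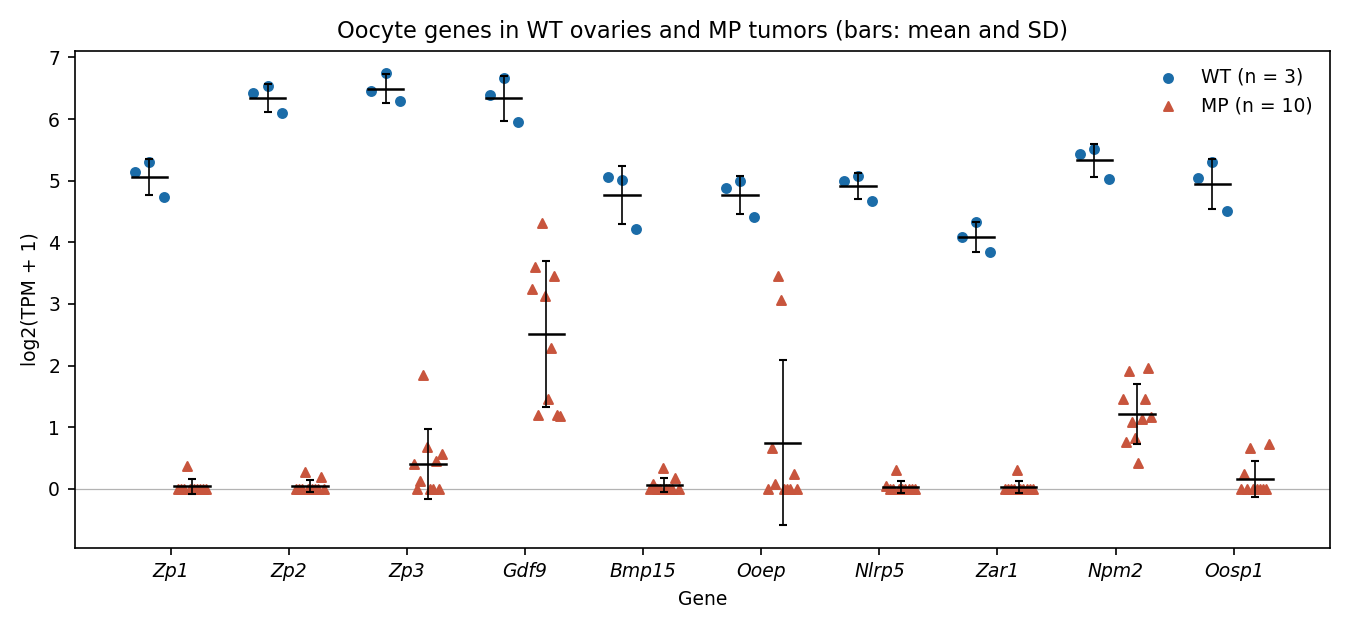
Level of each of the 10 genes as log2(TPM + 1) on the y axis, for the 3 WT ovaries (circles) and the 10 MP tumors (triangles), with bars for mean and SD. No MP tumor reaches a WT ovary in any gene, Gdf9 and Npm2 stay above 0 in all 10 tumors, and Ooep has 2 tumors far above the other 8.

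Of the zona pellucida genes, Zp2 and Zp3 were in the upper range of the 10 in WT ovaries and Zp1 in the middle, and all were nearly without reads in tumors. Zp1 (ENSMUSG00000024734, chr19:10914287-10920632, minus strand, GRCm38) encodes the protein that crosslinks the zona filaments. It was at 34.3, 38.4 and 25.7 TPM in WT ovaries 1 to 3. In tumors it was at 0 in 9 libraries and at 0.289 TPM in MP tumor 4, which is 1 read. Its log2 fold change was -5.02 (SE 0.25, adjusted p = 5.16e-09, limma).

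Zp2 (ENSMUSG00000030911, chr7:120126772-120145291, minus strand) encodes the zona protein that binds sperm. It was at 84.8, 91.4 and 67.2 TPM in WT ovaries. MP tumors 4 and 9 had 0.21 and 0.138 TPM, 1 read each, and the other 8 were at 0. Its fall was the steepest of the 10, with a log2 fold change of -6.30 (SE 0.28, adjusted p = 3.92e-09, limma).

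Zp3 (ENSMUSG00000004948, chr5:135980099-135988624, plus strand) encodes the partner of ZP2 in the zona filament and is the gene whose 3 E-boxes are printed above. It was at 86.8, 106 and 77.1 TPM in WT ovaries. In tumors it was at 0 in 4 libraries, had a median of 0.201 TPM and reached 2.6 TPM in MP tumor 4, from 6 reads. This gave a log2 fold change of -6.09 (SE 0.41, adjusted p = 6.28e-08, limma). The zona genes kept near-constant ratios in the WT ovaries: Zp2 was at 0.978, 0.866 and 0.871 of the level of Zp3, and Zp1 was at 0.396, 0.363 and 0.333 of it.

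The growth factor genes differed from each other in tumors. Gdf9 (ENSMUSG00000018238, chr11:53431023-53437904, plus strand) encodes growth differentiation factor 9, a TGF-beta family ligand that the oocyte sends to granulosa and cumulus cells. It was at 83, 101 and 60.9 TPM in WT ovaries. MP tumors 1 to 5 were at 8.43, 11.1, 1.29, 18.9 and 7.78 TPM, and MP tumors 6 to 10 were at 1.75, 3.86, 9.97, 1.3 and 1.27 TPM. Reads of Gdf9 were thus present in every tumor, and MP tumor 4, the highest, was at 23.2% of the WT mean from 67 reads. The log2 fold change was -3.83 (SE 0.68, adjusted p = 0.00124, limma), the smallest fall of the 10 in this fit. With libraries thinned to equal depth, Ooep fell less (-3.78, against -3.90 for Gdf9).

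Bmp15 (ENSMUSG00000023279, chrX:6314107-6320721, minus strand) encodes the partner ligand of GDF9, and its printed promoter holds the NOBOX, LHX8 and TATA letters. It was at 32.5, 31.4 and 17.6 TPM in WT ovaries. Only 3 reads were seen over the 10 tumors, 1 each in MP tumors 2, 5 and 9, and the other 7 were at 0. Bmp15 had a log2 fold change of -4.71 (SE 0.27, adjusted p = 1.52e-08, limma). In WT ovaries Bmp15 was at 0.391, 0.311 and 0.288 of the level of Gdf9.

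Ooep and Nlrp5 encode members of the subcortical maternal complex, a protein assembly under the oocyte membrane that the early embryo needs to divide. Ooep (ENSMUSG00000032346, chr9:78376109-78378725, minus strand) was at 28.3, 31 and 20.3 TPM in WT ovaries. MP tumor 4 was at 9.91 TPM from 37 reads and MP tumor 5 at 7.39 TPM from 20 reads, which are 37.3% and 27.9% of the WT mean. MP tumor 2 followed with 0.589 TPM, MP tumors 3 and 9 had 1 read each, and 5 tumors were at 0. The log2 fold change was -4.01 (SE 0.74, adjusted p = 0.00167, limma), with the largest standard error of the 10.

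Nlrp5 (ENSMUSG00000015721, chr7:23385889-23441922, plus strand), also known as Mater, was at 31, 32.6 and 24.5 TPM in WT ovaries. In tumors it had 2 reads in MP tumor 4 and 1 read in MP tumor 1, and 8 were at 0. Nlrp5 had a log2 fold change of -4.88 (SE 0.25, adjusted p = 5.16e-09, limma). In WT ovaries Nlrp5 was at 1.09, 1.05 and 1.21 times the level of Ooep, and in MP tumor 4 it was at 0.0238 of it, so the levels of Ooep in that tumor stood without matching levels of its partner.

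The last 3 genes act on maternal RNA, chromatin or the cell surface. Zar1 (ENSMUSG00000063935, chr5:72576806-72581254, minus strand), which encodes a binder of maternal mRNA, was at 15.9, 19.2 and 13.3 TPM in WT ovaries and had 1 read over the 10 tumors, in MP tumor 5. The log2 fold change was -4.05 (SE 0.23, adjusted p = 1.52e-08, limma). Oosp1 (ENSMUSG00000041857, chr19:11667460-11691150, minus strand), which encodes an oocyte secreted protein, was at 31.9, 38.4 and 21.7 TPM in WT ovaries. It had 1 read each in MP tumors 2, 4 and 10 and was at 0 in the other 7, with a log2 fold change of -4.78 (SE 0.30, adjusted p = 3.59e-08, limma).

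Npm2 (ENSMUSG00000047911, chr14:70647302-70659244, minus strand) encodes nucleoplasmin 2, a histone chaperone that remodels chromatin after fertilization. It was at 42.4, 44.9 and 31.5 TPM in WT ovaries. MP tumors 1 to 5 were at 1.75, 0.695, 2.75, 1.11 and 0.763 TPM, and MP tumors 6 to 10 were at 0.343, 1.2, 1.73, 2.91 and 1.24 TPM. As with Gdf9, no tumor was at 0, but the values rest on 1 read each in MP tumors 5 and 6 and 2 reads each in MP tumors 4 and 10, and the highest, from 8 reads in MP tumor 9, was at 7.33% of the WT mean. The log2 fold change was -4.11 (SE 0.40, adjusted p = 2.92e-06, limma).

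**Figure D2:**
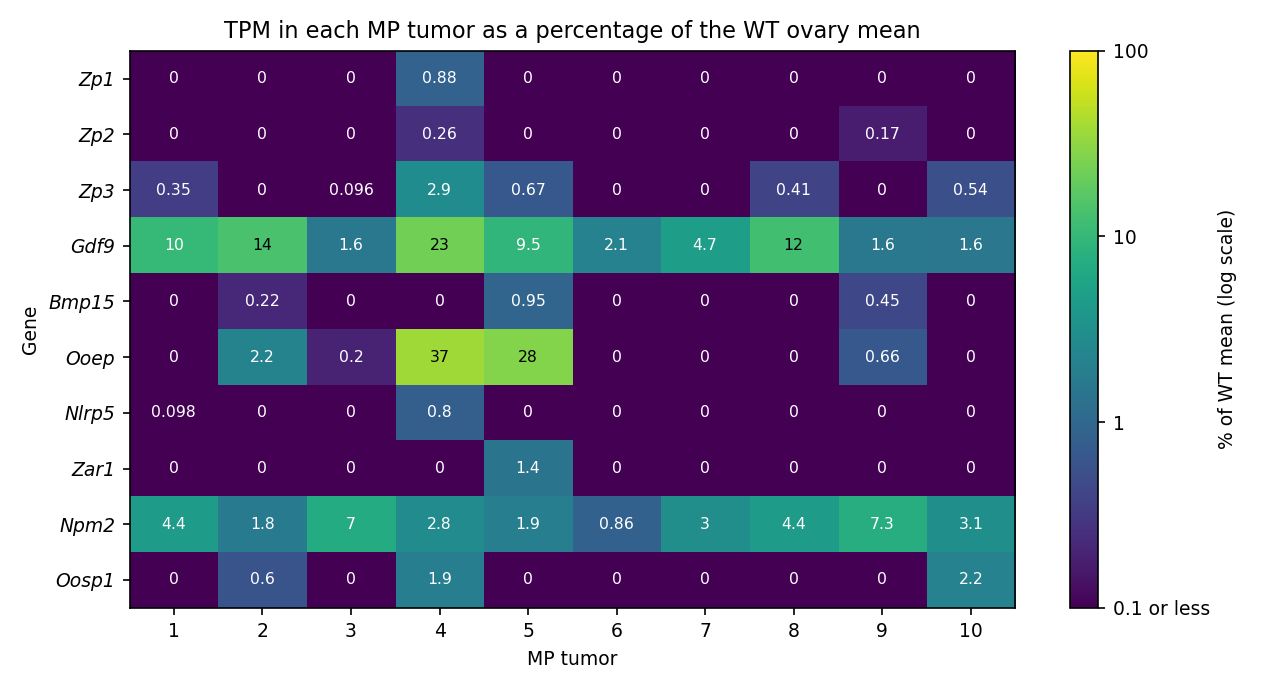
TPM of each gene (rows) in each of the 10 MP tumors (columns) as a percentage of the mean of the 3 WT ovaries, on a log color scale. The rows of Gdf9 and Npm2 are filled in every tumor, Ooep reaches 37.3% in MP tumor 4 and 27.9% in MP tumor 5, and 57 of the 100 cells are at 0.

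Pooled over the 10 tumors, the reads left little of most genes. Zp1 had 1 read, which is 0.0384% of the WT level (95% exact Poisson interval 0.000972 to 0.214%). Zp2 stood at 0.0226% (0.00273 to 0.0815%), Nlrp5 at 0.0525% (0.0108 to 0.153%), Bmp15 at 0.0901% (0.0186 to 0.263%) and Oosp1 at 0.251% (0.0517 to 0.733%). Zp3, with 15 reads, stood at 0.315%, Ooep at 2.9%, Npm2 with 70 reads at 4.25% and Gdf9 with 522 reads at 7.85%. Pooling weights the deeper tumors: as a mean over tumors of equal weight, Ooep stood at 6.83%, Npm2 at 3.65% and Gdf9 at 8.04% of the WT mean, so the order of Ooep and Npm2 turns with the averaging. Of the 66 reads of Ooep, 57 came from MP tumors 4 and 5, and the pooled value was 1.33% without MP tumor 4 and 0.428% without both. Zp3 stood at 0.197% without MP tumor 4. The lowest values rest on 1 to 3 reads in all: without MP tumor 4, Zp1 stood at 0%, Zp2 at 0.0118% and Nlrp5 at 0.0183%, and without MP tumor 5, Zar1 stood at 0%. With equal weight for each tumor, Zp1 stood at 0.0882%, Zp2 at 0.0429%, Zp3 at 0.496%, Nlrp5 at 0.0902%, Bmp15 at 0.162%, Zar1 at 0.141% and Oosp1 at 0.468%. These intervals cover counting error only. Of the 100 pairs of gene and tumor, 57 were at 0, 18 had 1 read and 13 had at least 10 reads.

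The sum of the 10 genes was 471, 534 and 360 TPM in WT ovaries, while the tumors ran from 2.09 TPM in MP tumor 6 to 33.8 TPM in MP tumor 4 with a median of 7.79 TPM. Gdf9 and Npm2 made up 25.7 to 27.3% of that sum in WT ovaries and 50.2 to 100% of it in tumors, with a median of 95%. Without them the tumors summed to between 0 TPM, in MP tumors 6 and 7, and 13.8 TPM, in MP tumor 4.

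Within the WT ovaries, the order of the 10 genes could be told only in part. Zp3, Gdf9 and Zp2 were highest, at 89.8 ± 14.5, 81.6 ± 20 and 81.1 ± 12.5 TPM (SD, n = 3), and their ranges over the ovaries overlapped, while all 3 lay above the other 7. Within each ovary Zp3 was above Gdf9 in 3 of 3, and Gdf9 was above Zp2 in 1 of 3. Npm2, Zp1, Oosp1, Nlrp5, Bmp15 and Ooep followed, from 39.6 ± 7.11 to 26.5 ± 5.55 TPM, and each overlapped its neighbour in the order. Zar1 was lowest at 16.1 ± 2.99 TPM, below the range of Ooep (20.3 to 31 TPM) but overlapping that of Bmp15 (17.6 to 32.5 TPM). WT ovary 3 was the lowest of the 3 ovaries in every one of the 10 genes, at 0.55 to 0.802 of the mean of the other two. The median of that ratio was 0.714 over the 10 genes and 0.941 over 8471 genes with a WT mean of 10 to 110 TPM, of which 17.4% lay below 0.802.

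Within set A, which compares MP tumors 1 to 3 with the 3 WT ovaries, all 10 genes were lower as well, where 57.3% of tested genes were lower. The median of all tested genes was -1.19 there. The log2 fold changes of the 10 ran from -6.35 to -3.66 and the largest adjusted p was 0.00145 (limma).

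**Figure D3:**
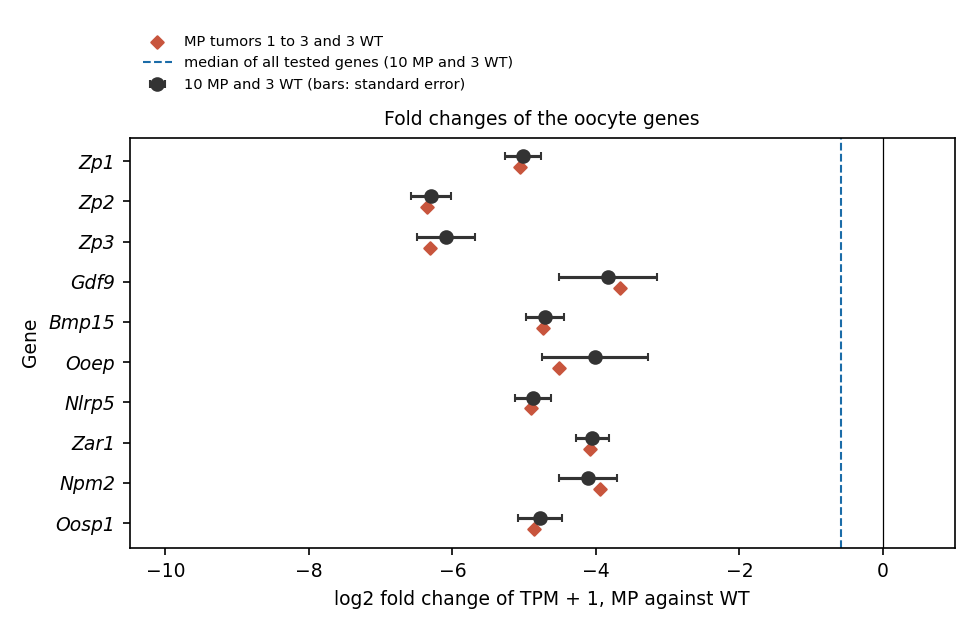
Log2 fold change of TPM + 1 (x axis) for each gene (y axis), from 10 MP tumors against 3 WT ovaries (circles, bars for the standard error) and from MP tumors 1 to 3 only (diamonds). Every point lies left of the dashed line at -0.58, the median of all tested genes for 10 MP tumors against 3 WT ovaries. For MP tumors 1 to 3 only, that median was -1.19.

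Of 6 listed transcription factors that act on oocyte genes, 5 were tested, 2 were lower (where 14.3% of all tested genes were lower) and 1 was higher (where 2.51% were higher). Figla, the E-box factor that activates the zona genes, was at 2.09 ± 0.319 TPM in WT ovaries (SD, n = 3) and at 0 in all 10 tumors. Figla and Nobox both passed the filter on low values only through the WT ovaries, so that a difference was built into their passing. Nobox, the homeobox factor of the oocyte, was at 13.3 ± 2.89 TPM in WT ovaries and 0.14 ± 0.207 TPM in tumors (n = 10), with a log2 fold change of -3.65 (SE 0.26, adjusted p = 1.39e-07, limma).

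Sohlh1, a helix-loop-helix factor of early germ cells, went the other way. It was at 1.27 ± 0.353 TPM in WT ovaries (SD, n = 3) and at 96.8 ± 89.4 TPM in tumors (n = 10), where the lowest tumor was at 6.98 TPM and the highest at 275 TPM. Every tumor lay above every WT ovary, and the log2 fold change was 4.77 (SE 0.86, adjusted p = 0.00141, limma). Sohlh1 passed the filter only with the tumors, where it is high, so here too a difference was built into its passing. Within set A, the log2 fold change was 5.45 for Sohlh1 (adjusted p = 6.21e-05, limma) and -3.70 for Nobox (adjusted p = 2.36e-05, limma). Its partner Sohlh2 was not tested, since it was low in both groups apart from 10.7 TPM in MP tumor 5. Lhx8 had a log2 fold change of -1.19 (adjusted p = 0.149, limma) and Taf4b of -0.02 (adjusted p = 0.979, limma).

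**Figure D4:**
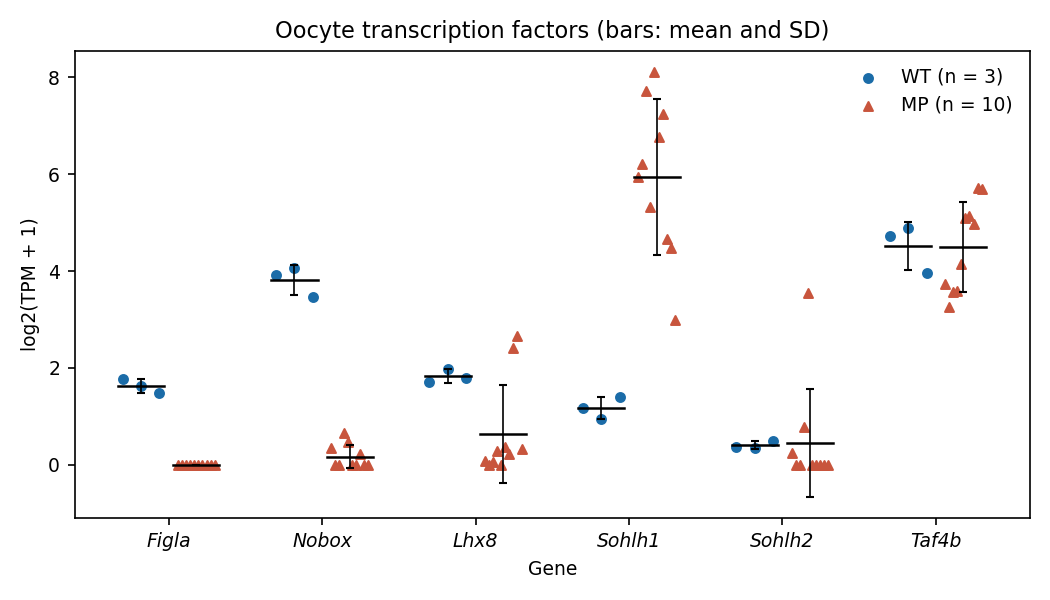
Level of 6 oocyte transcription factors as log2(TPM + 1) on the y axis, for 3 WT ovaries (circles) and 10 MP tumors (triangles), with bars for mean and SD. Figla is at 0 in all 10 tumors, Nobox is near it, and Sohlh1 is higher in every tumor than in any WT ovary.

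Among 31 other oocyte and maternal effect genes, 29 were tested and 23 were lower (79.3%, where 14.3% of all tested genes were lower). Of those 23, however, 22 passed the filter only through the WT ovaries, and 8 were at 0 in all 10 tumors, so the count is given only as a description. Within set A, 27 of the 29 were lower, where 57.3% of all tested genes were lower. Padi6, a maternal factor of the oocyte lattices, went from 121 ± 17 TPM (SD, n = 3) to 0.525 ± 1.28 TPM (n = 10), with a log2 fold change of -6.55 (SE 0.48, adjusted p = 1.67e-07, limma). Nlrp14 went from 71 ± 15.9 to 0.0213 TPM, with a log2 fold change of -6.12 (SE 0.28, adjusted p = 3.92e-09, limma). The 6 tested genes that did not pass were Tle6, Zbed3, Cd9, Gja4, Uchl1 and Kit, some of which other cells also express. Of 14 germ cell and meiosis genes only 7 were tested, and 3 were lower (42.9%, against 14.3% of all tested genes). These were Gtsf1 (log2 fold change -2.55), Tex14 (-2.48) and Mael, which also passed the filter only through the WT ovaries. The other 4 tested did not pass the test: Ddx4 (-1.23, adjusted p = 0.0623, limma), Dazl (-0.60), Stag3 (0.95) and Rec8 (0.89). Within set A, 4 of the 7 were lower (57.1%), close to the 57.3% of all tested genes.

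GDF9 and BMP15 act through BMPR2 and type 1 receptors on granulosa cells. Of 12 receptor and SMAD genes, all tested, 4 were lower (33.3%, against 14.3% of all tested genes), with a median log2 fold change of -1.90. Bmpr1b went from 60.8 ± 21.7 TPM (SD, n = 3) to 7.21 ± 11.1 TPM (n = 10), with a log2 fold change of -3.76 (SE 0.88, adjusted p = 0.00928, limma). Bmpr2 had a log2 fold change of -2.86 (SE 0.84, adjusted p = 0.0309, limma), and Tgfbr1 and Acvr1 were the other two. The count moved when single libraries were left out. It was 1 (8.33%) without WT ovary 1 or 2, 2 without WT ovary 3 and 7 without MP tumor 9. The count over all 17277 tested genes moved too, from 2463 to 1158, 1195 and 1185 without WT ovary 1, 2 and 3. Without MP tumor 9 it was 3264. Within set A all 12 were lower, where 57.3% of all tested genes were lower and their median was -1.19.

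Of 13 genes of cumulus cells and of follicle genes under oocyte control, 9 were tested and 4 were lower (44.4%, against 14.3% of all tested genes), with a median log2 fold change of -1.98. Of the 4, 1 passed the filter only through the WT ovaries. Amh, a hormone of growing follicles, went from 336 ± 106 TPM (SD, n = 3) to 3.71 ± 8.91 TPM (n = 10), with a log2 fold change of -7.19 (SE 0.83, adjusted p = 2.07e-05, limma). Npr2, the receptor that holds the oocyte in meiotic arrest, had a log2 fold change of -3.95 (SE 0.94, adjusted p = 0.0104, limma). The count was 1 (11.1%) without WT ovary 1 or 2. In those fits 1158 and 1195 of all 17277 tested genes were lower, against 2463 with all libraries. It was 7 (77.8%) within set A, where 57.3% of all tested genes were lower.

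Most tested markers of other ovarian cells fell beside the oocyte genes. Of 9 granulosa cell markers 8 were lower (88.9%, against 14.3% of all tested genes), 3 of which passed the filter only through the WT ovaries. The median log2 fold change of the list was -4.70. Inhba, a subunit of activin and inhibin, had a log2 fold change of -6.83 (adjusted p = 6.7e-08, limma) and Nr5a2, a nuclear receptor of granulosa cells, of -6.81 (adjusted p = 0.000255, limma). Their summed level was 4380 to 8340 TPM in WT ovaries and 32 to 1570 TPM in tumors, and Fshr and Cyp19a1 were each at 0 in 9 of 10 tumors. The count was 5 without WT ovary 2, where 1195 of all 17277 tested genes were lower, against 2463 with all libraries. It was 9 within set A, where 57.3% of all tested genes were lower. Of 8 theca and luteal markers 7 were tested and 6 were lower (85.7%, against 14.3% of all tested genes), with a median of -8.60. Of the 6, 1 passed the filter only through the WT ovaries. Cyp17a1 did not pass the test (log2 fold change -3.14, adjusted p = 0.0924, limma), at 12.6 to 286 TPM in WT ovaries and 0 to 71.9 TPM in tumors. Insl3 was not tested, with means of 0.623 TPM in WT ovaries and 0.554 TPM in tumors. Cyp11a1, which starts steroid synthesis from cholesterol, had a log2 fold change of -9.61 (adjusted p = 1.8e-05, limma) and Akr1c18, which breaks down progesterone, of -9.52 (adjusted p = 1.85e-05, limma). Within set A all 7 were lower, where 57.3% of all tested genes were lower. Their sum was 27100 to 32100 TPM in WT ovaries and 8.93 to 825 TPM in tumors. The part of the cells with these markers in the values of the oocyte genes was not tested.

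Of 6 epithelial tumor markers, all tested, 2 were lower (Epcam and Krt7; 33.3%, against 14.3% of all tested genes), with a median log2 fold change of -2.31. Their sum was 276 to 303 TPM in WT ovaries and 8.09 to 1200 TPM in tumors, so the tumors lay on both sides of the ovaries. The count moved with the libraries and the processing. It was 1 without any 1 of the WT ovaries and 1 without any 1 of MP tumors 2, 3, 6, 7 and 8. It was 3 (50%) without MP tumor 4 or MP tumor 9. Within set A it was 4 (66.7%), where 57.3% of all tested genes were lower. Over all genes, 1158 to 1195 were lower without a WT ovary and 2055 to 2403 without 1 of MP tumors 2, 3, 6, 7 and 8. It was 2450 without MP tumor 4 and 3264 without MP tumor 9, against 2463 with all libraries. The highest sum came from MP tumor 4, and the next highest tumor was at 593 TPM. Oviduct markers summed to 0.767 to 2.06 TPM in WT ovaries. In tumors they ran from 0.492 TPM to 25.4 TPM with a median of 1.96 TPM, and the highest was MP tumor 9, where Pax8 alone was at 23.2 TPM, while the next highest tumor was at 6.68 TPM. Testis markers summed to 0.115 to 1.2 TPM in WT ovaries and 0 to 4.11 TPM in tumors.

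Genes that lie within 1000 bases of the 10 bear on reads that could be shared, since the strand setting of the counting is not given in the sources used here. Uqcrq, a subunit of mitochondrial complex III, lies 192 bases from Gdf9 on the opposite strand and was at 215 ± 23 TPM in WT ovaries (SD, n = 3) and 389 ± 230 TPM in tumors (n = 10). Xpo7 overlaps Npm2 on the same strand and was at 25.9 ± 4.21 and 24.2 ± 13.3 TPM. Both neighbours of the genes that kept reads in every tumor were thus well expressed there, and their part in those reads was not tested. Gm25196, which lies inside Nlrp5 on the same strand, was at 0 in all 13 libraries. Gm5868, 384 bases from Zar1, went from 4.68 ± 1.77 to 0.241 ± 0.72 TPM (log2 fold change -2.26, SE 0.36, adjusted p = 0.000425, limma). It would not have passed the filter on low values through MP tumors alone, so a difference was built into its passing.

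The genes most like the 10 were sought by Pearson's r with their mean standardized profile over the 13 libraries. The search covered 11850 tested genes with a mean of at least 5 TPM in WT ovaries. Those with the highest r were Nobox (0.9983), Bcl2l10 (0.9967), Oas1d (0.9958), Apoa4 (0.9956), Nlrp9a (0.9953), Astl (0.9945), Gm13084 (0.9945), Nlrp14 (0.9941), Nlrp4a (0.9937) and Trim61 (0.9927). The profile is mainly the step between WT ovaries and tumors, so a high r says that a gene shares that step. Among the 10 genes themselves, Ooep (0.891), Gdf9 (0.899) and Npm2 (0.962) were the least like the shared profile.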

How the data were processed

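Bulk polyA RNA of 3 WT ovaries and 10 MP tumors had been sequenced in single 76 bp reads. The values the authors deposited are TPM, in a single table of genes by libraries. The processing notes of the submitters name FastQC 0.11.5, Trimmomatic 0.36, STAR 2.5.3a and featureCounts 1.6.3. The extraction text in the labels names a human build and RPKM instead, but the deposited table holds mouse genes. Of these, 96.2% have the start and end of GENCODE release M21 (GRCm38), as do all 10 members. Strand setting and the handling of multi-mapped reads are not given in the sources used here. TPM is a share, so a gene's value falls when other genes take more of a library.

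Reads were worked back from TPM times gene length, and 100% of values came out whole within 0.01. The filter kept 17277 genes that reached a TPM of 1 in 3 or more libraries. They were tested as log2(TPM + 1) with limma 3.58.1 (trended, robust) in R 4.3.3, without a covariate, at a Benjamini-Hochberg adjusted p under 0.05. On this scale the fold of a gene at low level comes out too small. Samples are separate in the labels, which do not say more of their source. The p-values weigh the difference between the groups against the spread between these samples, in which differences between the name sets are mixed. The 10 members and all gene lists were chosen with earlier results of these data known. Named genes were all members, the called genes with the 2 largest changes in each list, all oocyte transcription factors, overlapping genes and the 10 most alike genes. Other genes were named after their values were seen. Alternatives changed the pseudocount, filter, scaling, model, covariate, depth and libraries.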

Additional observations from a re-analysis of the deposited data

Results flagged for a closer look

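In 5 of the 10 genes, 1 tumor stood apart from the other 9 by Dixon's criterion. For continuous values chance gives this in about 1 in 20 genes, but that rate does not hold for counts this low: with the other 9 tumors at 0, a single read meets the criterion by construction. MP tumor 4 was the tumor for Zp1 (0.289 TPM, 1 read, next highest 0), Zp3 (2.6 TPM, 6 reads, next highest 0.597 TPM) and Nlrp5 (0.236 TPM, 2 reads, next highest 0.0287 TPM). MP tumor 5 was the tumor for Bmp15 (0.258 TPM, 1 read, next highest 0.123 TPM) and Zar1 (0.228 TPM, 1 read, next highest 0). These tumors have the fewest reads of the 13 libraries, 4192117 and 3892690.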

How the results depend on the processing

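All 10 members stayed lower and past the threshold under each of the 25 alternatives tried, 13 of which left out 1 library. Gdf9 ranged from -4.18 to -3.09 on the log2 scale (largest adjusted p 0.0165) and Ooep from -6.26 to -3.31 (0.0156). The folds of the genes nearly without reads in tumors also moved with the setting: Zp2 ranged from -9.79 to -5.73, Nlrp5 from -9.09 to -4.22, Zp3 from -8.27 to -5.51, Zp1 from -8.17 to -4.40, Bmp15 from -8.16 to -4.03, Zar1 from -7.96 to -3.27 and Oosp1 from -7.50 to -4.12. An exact permutation test over the 13 libraries gave p = 0.0035 for each member, the smallest it can give, which restates that the groups do not overlap and takes no account of the name sets.

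Counts over all genes and lists did move. Genes lower and higher numbered 4045 and 1876 with limma-voom on reads, 8534 and 894 with name set as a covariate, and 9902 and 1112 within set A. Genes higher numbered 1291 with median-of-ratios scaling, 1904 with quantile normalization and 675 without MP tumors 2 and 10. Receptor and SMAD genes lower numbered 7 with limma-voom and 12 with the covariate or within set A, and cumulus genes numbered 7 within set A. Epithelial tumor markers lower numbered 2 as reported, and 1 with median-of-ratios scaling, without the filter, with a pseudocount of 0.1, with quantile normalization or without MP tumors 2 and 10. They numbered 3 with limma-voom, and 4 with the covariate or within set A. Leaving out 1 library gave 1158 to 3264 genes lower and 94 to 635 higher, 1 to 7 receptor genes, 1 to 4 cumulus genes, 5 to 9 granulosa markers and 1 to 3 epithelial markers. The lowest counts over all genes came without a WT ovary (1158, 1195 and 1185 lower, and 135, 153 and 94 higher, without WT ovary 1, 2 and 3). The cause was not tested.

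WT ovaries and MP tumors share replicate numbers 1 to 3, but no label ties them to shared animals. Deviations of same-numbered libraries from their group means correlated at -0.096, -0.021 and 0.001. An ovary and a tumor of 1 animal need not deviate together, so these values cannot settle whether the numbers pair them. The libraries were treated as unpaired because no label pairs them. With the replicate block within set A, 9838 genes were lower and 1095 higher, with 12 receptor genes, 7 cumulus genes and 4 epithelial markers lower, and all 10 members stayed lower.

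Depth limits the tumors more than the WT ovaries: most members in tumors have no read or 1, and levels of 0 allow up to 3 reads.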

Other observations

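Some tumors stood above the other tumors in other germ cell genes, chosen here after their values were seen. Rec8, a meiotic cohesin, was highest in MP tumors 4 and 5, the tumors with the most Ooep. Kit was at 512 TPM in MP tumor 10, against 15.5 to 19.4 TPM in WT ovaries, and MP tumors 4 and 7 were also above that range, at 41.9 and 21.7 TPM. Dazl, an RNA binder of germ cells, was at 7.33 TPM in MP tumor 3 and 8.96 TPM in MP tumor 4, against 2.27 to 3.43 TPM in WT ovaries, and MP tumor 10 was just above them at 3.72 TPM. H1foo, the oocyte linker histone, was at 5.91 TPM in MP tumor 1, and Padi6 was at 4.08 TPM in MP tumor 7, both far below the WT means of 62.2 and 121 TPM. Tle6, which joins the subcortical maternal complex, was at 105 TPM in MP tumor 1 and 109 TPM in MP tumor 7, and at 61 TPM in MP tumor 4, above the 55 to 58.8 TPM of the WT ovaries. No test was made of these single libraries.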
